A study of Mus musculus with 22 samples.

Results

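Pachytene progression in trisomic male germ cells was described as the difference between mid-late-pachytene and pre-mid-pachytene spermatocytes of Ts43H males, mice trisomic for the centromere-proximal part of chromosome 17. The comparison used 2 arrays of mid-late-pachytene and 3 arrays of pre-mid-pachytene spermatocytes out of 22 arrays in the series, and covered the 9010 of 15780 named genes whose mean level reached 4 on the log2 scale in at least 1 of the 2 stages. Just outside that limit lay Zfp469, with a mean of 3.998 in its higher stage, and just inside it Agr3, with 4.006. The males were 2 months old, and the spermatocytes had been sorted by flow cytometry from suspensions of testicular tubules. The euploid siblings, t121/D17 males, gave 2 mid-late-pachytene and 3 pre-mid-pachytene arrays sorted in the same way, and trisomic spermatids (3 arrays) gave the stage that follows. The labels do not give the breakpoint of the extra segment, which was set here to the first 30 Mb of chromosome 17. Nor do they say whether each array stands for another animal, so that the spread behind the p values may be technical. That spread was estimated for each gene over all 22 arrays, those of liver and spermatids included, and not from the compared arrays alone. Levels are log2 intensities of probe sets, and levels below 3 are called the background range.

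Pachytene is the longest stage of meiotic prophase, in which paired homologous chromosomes are joined by the synaptonemal complex while double-strand breaks are repaired as crossovers. The unpaired X and Y chromosomes are transcriptionally silenced in this stage by signalling from DNA damage kinases, a process known as meiotic sex chromosome inactivation. From mid-pachytene on, spermatocytes switch on a large programme of genes for sperm function, driven in mouse by the transcription factor MYBL1 (A-MYB) among others, and many of these transcripts are stored for use in spermatids.

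The promoter sequences of 5 genes are shown because these genes carry the stage difference at its extremes or mark the stages. Slc25a54, a member of the mitochondrial carrier family, had the largest increase and Prss50, a testis serine protease, the largest decrease. Ccna1 (cyclin A1) and Piwil1 (the pachytene piRNA-binding protein) are genes of the pachytene programme, and Stra8 starts meiosis. Each run holds the 250 bases before the start of 1 transcript as RefSeq's promoter windows on GRCm38.p6 place it, 5′ to 3′ on the gene's strand, and capitals mark matches to the MYB site AACNGNC on either strand. For Slc25a54 and Prss50 the run ends where the annotated gene begins, while for Stra8 and Ccna1 it lies within the annotated gene and for Piwil1 it overlaps the gene's first bases, since the annotated span of these 3 genes begins further upstream.
Slc25a54 (chr3:109080249-109080498, plus strand): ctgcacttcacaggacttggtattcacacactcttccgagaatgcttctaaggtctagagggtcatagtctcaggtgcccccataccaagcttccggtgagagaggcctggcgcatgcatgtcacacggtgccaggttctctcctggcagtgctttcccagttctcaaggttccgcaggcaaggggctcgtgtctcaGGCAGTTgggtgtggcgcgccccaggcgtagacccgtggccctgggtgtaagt
Ccna1 (chr3:55055056-55055305, minus strand): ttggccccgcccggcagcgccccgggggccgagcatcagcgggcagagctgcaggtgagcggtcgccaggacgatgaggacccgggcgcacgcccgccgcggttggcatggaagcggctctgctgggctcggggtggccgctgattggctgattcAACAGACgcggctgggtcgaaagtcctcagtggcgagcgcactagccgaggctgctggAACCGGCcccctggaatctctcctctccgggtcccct
Piwil1 (chr5:128735996-128736245, plus strand): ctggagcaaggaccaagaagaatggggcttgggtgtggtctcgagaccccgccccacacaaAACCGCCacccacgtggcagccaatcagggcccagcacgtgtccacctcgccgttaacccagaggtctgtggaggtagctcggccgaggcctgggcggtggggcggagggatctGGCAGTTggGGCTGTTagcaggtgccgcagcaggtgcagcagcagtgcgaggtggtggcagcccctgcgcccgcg
Stra8 (chr6:34920698-34920947, plus strand): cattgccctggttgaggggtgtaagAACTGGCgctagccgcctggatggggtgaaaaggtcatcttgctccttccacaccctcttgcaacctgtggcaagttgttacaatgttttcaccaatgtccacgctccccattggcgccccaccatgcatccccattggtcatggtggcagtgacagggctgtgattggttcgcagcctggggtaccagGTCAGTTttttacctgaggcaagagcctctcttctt
Prss50 (chr9:110857714-110857963, plus strand): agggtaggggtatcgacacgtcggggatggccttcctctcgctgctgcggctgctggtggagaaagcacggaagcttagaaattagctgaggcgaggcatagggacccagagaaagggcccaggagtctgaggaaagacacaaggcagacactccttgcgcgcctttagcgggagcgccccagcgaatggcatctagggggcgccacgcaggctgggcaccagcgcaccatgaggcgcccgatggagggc

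The match began 53 bases before the start in Slc25a54, 95 and 37 bases before it in Ccna1, 189, 75 and 66 bases before it in Piwil1, and 225 and 36 bases before it in Stra8, which fell. Prss50 held no match in this window. RefSeq windows were matched for 7439 of the 9010 tested genes (82.6%). The MYB site was present in 992 of 3104 windows of genes that rose (32.0%), in 793 of 2799 windows of genes that fell (28.3%) and in 29.8% of all tested genes with a window. The cAMP response element TGACGTC was found in 4.32% of the windows of rising genes, 5.18% of those of falling genes and 5.04% of all, and the RFX half-site GTTGCCA in 4.19%, 2.61% and 3.72%. Both strands were searched for each motif, and a match describes the letters only. Of the windows of genes that rose by at least 3, 55.0% had a ratio of observed to expected CG dinucleotides over 0.6, against 69.0% of the windows of genes that fell by at least 3 and 70.6% of all.

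Before the results, the labelled stages were set against their markers. Of all 9010 tested genes, 42.0% were higher and 37.5% lower in mid-late than in pre-mid pachytene, by the test given below. Of 10 tested pachytene markers, 8 rose and none fell from the earlier stage, with a median level over the 11 listed genes of 14.62 to 14.74 on the mid-late arrays, against 11.35 to 12.11 on the pre-mid arrays. Of 8 tested markers of early meiotic prophase, 6 fell and 1 (Rec8) rose, and their median level was 5.70 to 6.47 on mid-late and 9.05 to 9.93 on pre-mid arrays. The defining early genes Stra8, Prdm9 and Dmc1 lay in the background range on both mid-late arrays. Both directions are those of the labelled order.

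Markers of other cells moved with the stage as well. They are set beside the 37.5% of all tested genes that were lower. Elongating spermatid markers, which code for the proteins that condense and build the sperm head and tail, were lower in mid-late arrays for 11 of 12 genes. Their summed level was 118.4 to 120.6 on mid-late arrays, against 159.4 to 169.3 on pre-mid arrays, and none lay in the background range in either stage. Their median level on the pre-mid arrays, 13.59 to 14.39, was close to the 14.26 to 14.77 of trisomic spermatids. Sertoli cell markers, from the somatic cells that nurse germ cells, were lower in mid-late arrays for all 7 tested genes of the 13 measured. Their summed level was 60.3 to 61.2 on mid-late and 83.3 to 86.2 on pre-mid arrays, and 5 of the 13 (Gata4, Sox8, Fshr, Dhh and Trf) lay in the background range in both stages. The same 11 elongating spermatid genes and 7 Sertoli genes make up part of the decreases below, and the part that these cells had in other decreases was not tested. In such sorted bulk samples, fewer cells of a type and less RNA per cell cannot be told apart. Leydig cell markers (5 measured) and hepatocyte markers (7 measured) held no tested gene.

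Between pre-mid and mid-late pachytene, most of the measured transcriptome of trisomic spermatocytes differed. Of 9010 tested genes, 7162 passed the adjusted p threshold of 0.05 in limma (79.5%), with 3783 higher (42.0%) and 3379 lower (37.5%) in mid-late pachytene. The mean levels differed by at least 1 on the log2 scale for 3151 of the higher and 2857 of the lower genes, and by at least 3 for 1110 and 1058. The median difference over all tested genes was 0.11. The split was 3694 higher and 3542 lower after quantile normalization, and 4200 higher and 3064 lower after centring each array on its autosomal median. Arrays of 1 stage correlated across genes with r of 0.994 to 0.997 and arrays of different stages with r of 0.855 to 0.865, where genes are not independent replicates. For 7138 of the called genes (79.2% of those tested) the 2 mid-late arrays lay wholly on 1 side of the 3 pre-mid arrays, which was so for 8046 of all tested genes (89.3%).

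Genes that rose to mid-late pachytene were largely kept in spermatids. Of the genes that fell, 2477 (73.3%) had a spermatid mean over 1 below their pre-mid mean. Falling genes were set against the pre-mid and not the mid-late mean, so a partial return after mid-late pachytene is not counted here. Of the 3783 risers, 2363 (62.5%) had a trisomic spermatid mean within 1 of the mid-late mean, 968 (25.6%) were lower than it by over 1 and 452 (11.9%) higher by over 1. A mid-late mean at least 1 above both neighbouring stages was found for 842 risers (22.3%). Of the 3379 decreasing genes, 2216 (65.6%) had a pre-mid mean at least 1 above both later stages, and 857 (25.4%) had a spermatid mean below 4. Another 317 (9.38%) were higher in spermatids than in pre-mid spermatocytes by over 1. Only 188 of the risers (4.97%) had a spermatid mean below 4. Such a mean was found for 1158 of the 9010 tested genes.

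The largest increase was that of Slc25a54 (chromosome 3, 109080499 to 109116582). Its level was 12.57 and 12.59 on the mid-late arrays, against 2.73, 2.74 and 2.98 on the pre-mid arrays, a difference of 9.76 (SE 0.14, limma adjusted p = 7.4e-17). Every pre-mid array was in the background range, both mid-late arrays lay far above it, and the level stayed at 11.82 in spermatids. Pkdrej, a polycystin relative of the sperm head known from the acrosome reaction, had 10.79 and 10.86 in mid-late spermatocytes, against 2.34, 2.08 and 2.29 in pre-mid spermatocytes. Rhcg, an ammonium transporter, had 10.41 and 10.49 on the mid-late arrays, against 2.05, 2.03 and 2.03 on the pre-mid arrays. For both genes the pre-mid arrays were in the background range. Their groups did not overlap, which was a condition for naming the largest changes.

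Ppargc1a, the coactivator of mitochondrial biogenesis, had 9.83 and 9.29 in mid-late spermatocytes, against 1.82, 1.86 and 1.67 in pre-mid spermatocytes (difference 7.78, SE 0.60). Cpt1b, which admits fatty acids into mitochondria, had 10.54 and 10.50 on mid-late arrays, against 3.06, 2.78 and 2.56 on pre-mid arrays (difference 7.72, SE 0.21). Adh4, an alcohol dehydrogenase that also acts on retinol, rose by 7.70. The other large increases were those of Ccdc88b (8.91), a coiled-coil protein, Ovol2 (8.33), a zinc finger transcription factor, Egflam (8.20), an extracellular matrix protein, and Adcy6 (8.07), an adenylyl cyclase. Abca14, a member of the ABC transporter family, rose by 7.89. Prss42, a serine protease of the testis, had 12.65 and 12.83 on mid-late arrays, against 5.72, 3.98 and 4.51 on pre-mid arrays. All 12 genes had adjusted p values of 7.1e-09 or less in limma, and their levels in spermatids ranged from 8.15 (Ppargc1a) to 12.14 (Prss42).

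**Figure D1:**
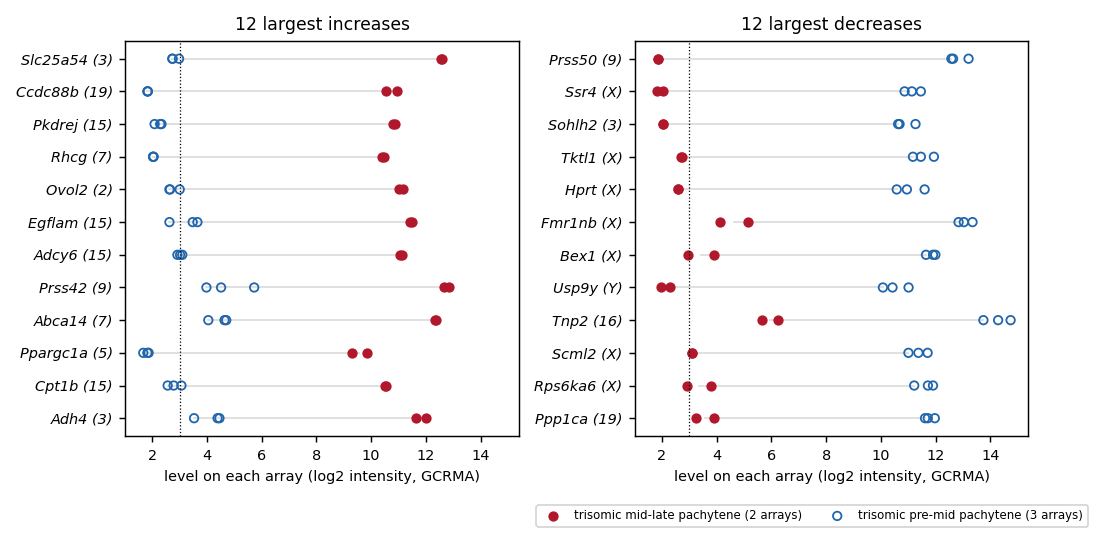
The levels on each trisomic array (log2 intensity, x axis) of the 12 genes with the largest increases and the 12 with the largest decreases are plotted, with filled points for 2 mid-late arrays and open points for 3 pre-mid arrays. All were picked from called genes whose 2 groups are separate, so the separation follows from the choice. Slc25a54 and Prss50 have the widest gaps, at 9.76 and -10.95.

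The largest decrease was that of Prss50 (chromosome 9, 110857964 to 110864629). Its level was 1.86 on both mid-late arrays, against 12.64, 12.58 and 13.21 on the pre-mid arrays, a difference of -10.95 (SE 0.20, limma adjusted p = 9.3e-16). It was also in the background range in trisomic spermatids, at 1.91. Sohlh2, a helix-loop-helix factor of the spermatogonial stages, had 2.04 on both mid-late arrays, against 10.68, 11.27 and 10.63 on the pre-mid arrays. Ppp1ca, a catalytic subunit of protein phosphatase 1, had 3.92 and 3.25 in mid-late spermatocytes, against 11.72, 11.61 and 11.97 in pre-mid spermatocytes. Of the other 9 largest decreases, 7 lay on X, Usp9y on Y, and Tnp2, a transition protein from the elongating spermatid list, had a difference of -8.30.

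Most tested genes of the sex chromosomes were lower in mid-late pachytene. Of 244 tested X genes, 213 fell (87.3%) and 7 rose (2.87%), against 37.5% and 42.0% over all tested genes, and the median X difference was -3.25. This median depended on which genes were counted, at -4.33 with the minimum mean raised to 6 and -0.17 without a level filter. The medians of the single autosomes other than 17 ran from -0.15 on chromosome 3 to 0.44 on chromosome 7. The median X difference was -3.39 and -3.18 on the mid-late arrays relative to the pre-mid mean, while the 3 pre-mid arrays lay at -0.01, -0.31 and 0.33. Of the 213 falling X genes, 134 (62.9%) fell by at least 3 and 82 lay in the background range in mid-late pachytene. In trisomic pre-mid spermatocytes, mid-late spermatocytes and spermatids the median X level was 7.40, 3.55 and 5.07. Relative to mid-late pachytene, the spermatid mean was higher by over 1 for 100 of the 213 (46.9%), and 39 reached at least their pre-mid mean in spermatids. Of 4 tested Y genes, 3 fell, among them Usp9y.

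Named X genes spanned housekeeping and germ cell functions. Ssr4, a subunit of the translocon-associated complex, had 2.02 and 1.82 in mid-late spermatocytes, against 11.13, 10.87 and 11.46 in pre-mid spermatocytes (difference -9.23, SE 0.42). Hprt, the purine salvage enzyme, had 2.59 and 2.60 on mid-late arrays, against 10.95, 10.58 and 11.60 on pre-mid arrays (difference -8.45, SE 0.57). Scml2, a Polycomb-related protein that acts on the sex chromosomes of spermatocytes, had 3.10 and 3.08 on mid-late arrays, against 11.37, 11.01 and 11.71 on pre-mid arrays. All 3 genes were at or near the background range in mid-late pachytene. Groups without overlap were again a condition for naming them. Tktl1, a transketolase-like enzyme, fell by 8.81, Fmr1nb by 8.44, Bex1 by 8.43 and Rps6ka6, a ribosomal S6 kinase, by 8.26. Among the falling X genes, 9 still had a mean of 8 or more in mid-late pachytene, among them Akap4, the main scaffold of the fibrous sheath of the sperm tail, with 10.74 in mid-late and 14.32 in pre-mid spermatocytes. The 9 were counted after their values were seen.

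The 7 X genes that rose were all higher again in spermatids. Samt2b, a testis-expressed gene of a multicopy X family, had 7.09 and 7.42 in mid-late spermatocytes, against 2.18, 2.15 and 2.15 in pre-mid spermatocytes (difference 5.10, SE 0.48), and 10.77 in spermatids. Akap14, a kinase anchoring protein, had 8.27 and 9.02 on mid-late arrays, against 4.16, 3.77 and 5.30 on pre-mid arrays. Fam47c had 6.22 and 6.81 on mid-late arrays, against 2.79, 3.01 and 2.99 on pre-mid arrays. Members of multicopy X families can share probes, so that the level of Samt2b may include its relatives.

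**Figure D2:**
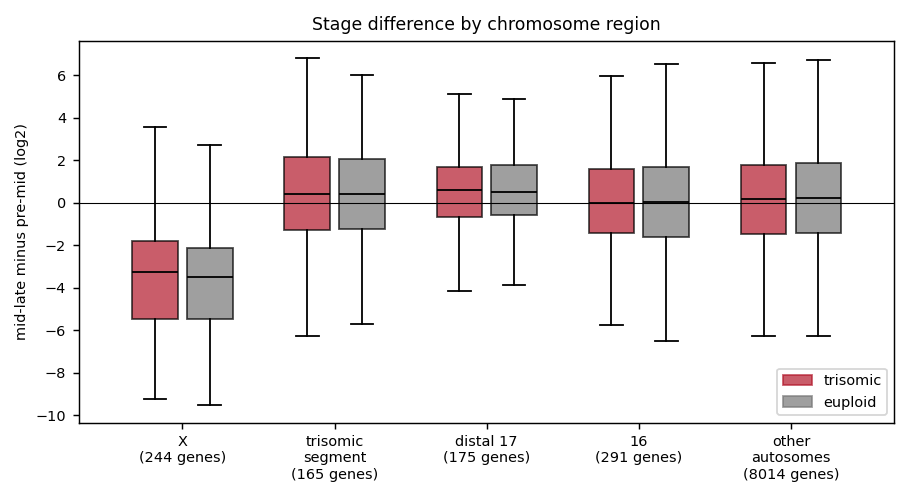
Box plots of the difference between mid-late and pre-mid pachytene (log2, y axis) over tested genes are shown by chromosome region, for trisomic and euploid germ cells side by side. Boxes span the quartiles with the median, and whiskers reach the furthest value within 1.5 box lengths; the X boxes lie below 0 in both genotypes, with medians of -3.25 in trisomic and -3.48 in euploid cells.

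Autosomal relatives of X genes were followed as pairs, since several housekeeping functions are taken over by retrogenes in spermatocytes. Cetn2, the X-linked centrin, had 3.27 and 3.12 in mid-late spermatocytes, against 9.58, 9.24 and 9.76 in pre-mid spermatocytes (difference -6.33, SE 0.20). Its testis relative Cetn1 had 13.93 and 13.67 on mid-late arrays, against 10.86, 11.15 and 11.36 on pre-mid arrays (difference 2.68, SE 0.18). Utp14a, for ribosome assembly, fell by 2.62 and its retrogene Utp14b rose by 3.69. Neither member of these pairs overlapped between stages, and the 2 members of each moved in opposite directions.

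The polyadenylation factor gene Cstf2 fell by 4.59, while its retrogene Cstf2t had 13.20 and 13.42 in mid-late spermatocytes, against 13.17, 13.16 and 12.93 in pre-mid spermatocytes. The difference of 0.22 for Cstf2t did not pass the test (limma adjusted p = 0.24), and it was -0.34 after quantile normalization and 0.45, with an adjusted p of 0.044, after centring. Pgk2, the glycolytic kinase of spermatogenic cells, had 14.79 and 14.74 on mid-late arrays, against 13.80, 14.21 and 14.71 on pre-mid arrays, and its difference of 0.52 did not pass in limma (adjusted p = 0.11). It passed after centring (0.75, limma adjusted p = 0.020), without pre-mid replicate 3 (0.76, adjusted p = 0.026) and in a fit of the 16 germ cell arrays (adjusted p = 0.036). Pdha2, the testis subunit of pyruvate dehydrogenase, rose by 1.01 and Rpl39l, a testis ribosomal protein, by 0.68. After quantile normalization the adjusted p values of these 2 genes were 0.053 and 0.29. Rbmx fell by 3.05, and Fam50a had a difference of -1.41 that did not pass in limma (adjusted p = 0.062). It passed without pre-mid replicate 1 (-1.73, adjusted p = 0.041) and without pre-mid replicate 2 (-1.89, adjusted p = 0.021). Pdha1 and G6pd2 stayed under the level filter.

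Genes of the early events of meiosis are given against the 37.5% lower and 42.0% higher of all tested genes. Of 12 tested genes of the synaptonemal complex and chromosome axis, 9 fell and 3 rose, with a median difference of -1.99. Sycp3, the axis protein used to stage spermatocytes, had 14.38 and 14.31 in mid-late spermatocytes, against 15.87, 15.80 and 15.86 in pre-mid spermatocytes, a 2.82-fold difference (-1.50, SE 0.14, limma adjusted p = 5.7e-08). The groups were separate, and the transcript remained well above the background range. Sycp1, the transverse filament, had 9.49 on both mid-late arrays, against 14.21, 14.18 and 14.01 on pre-mid arrays. Genes of the central element fell as well, with Tex12 lower by 5.60 (difference -5.60) and Syce2 by 4.29 (difference -4.29). 4930447C04Rik, the gene of the central element protein SIX6OS1, fell by 6.37. The 3 genes that rose were Syce1 (1.77), a central element protein, and the meiotic cohesin subunits Rec8 (0.97) and Stag3 (0.61), which are given because they are all of the exceptions.

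Of 21 tested genes of break formation and recombination, 12 fell and 3 rose, against the same 37.5% and 42.0% of all tested genes, with a median difference of -1.27. Dmc1, the meiotic recombinase, had 2.97 and 2.98 in mid-late spermatocytes, against 10.68, 10.28 and 10.91 in pre-mid spermatocytes (difference -7.65, SE 0.31, limma adjusted p = 3.6e-12). Its accessory factor Mnd1 had 2.35 on both mid-late arrays, against 8.67, 8.96 and 8.21 on pre-mid arrays. Both genes were in the background range in mid-late pachytene and clearly measured before it. Msh4, which stabilizes crossover intermediates, fell by 4.57, and the X-linked Tex11, which acts with it, by 7.96. Prdm9, the methyltransferase that places the breaks, lies in the trisomic segment (chromosome 17, 15543072 to 15564374). It had 2.27 and 2.28 on mid-late arrays, against 4.31, 4.81 and 6.03 on pre-mid arrays (difference -2.78, SE 0.33). The increases were those of Rad51c (2.54), Xrcc3 (1.66) and Mlh3 (0.99), all of later repair steps, named because they are the 3 exceptions.

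Signalling of unsynapsed chromatin comprised 17 tested genes, of which 13 fell and 3 rose (median difference -1.75), where 37.5% and 42.0% of all tested genes did. Atm, a kinase that answers double-strand breaks, had 2.25 and 2.19 in mid-late spermatocytes, against 7.75, 7.47 and 8.09 in pre-mid spermatocytes. Ubr2, a ubiquitin ligase required for silencing unsynapsed chromatin in mouse, had 3.20 and 3.10 on mid-late arrays, against 7.86, 7.82 and 8.11 on pre-mid arrays. Topbp1, an activator of the kinase ATR, fell by 3.64. The stage starters Stra8 (2.08 and 2.09 on mid-late arrays, against 7.79, 7.81 and 8.95 on pre-mid arrays) and Ythdc2 (difference -4.26) fell with them, as did Meiob, a single-strand DNA binding protein (difference -4.46).

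DNA replication genes moved in both directions. Of 22 tested, 9 fell and 5 rose, with a median difference of -0.47, and -0.24 after centring. Over all tested genes 37.5% fell and 42.0% rose, so the share of decreases was near the background. Subunits of the replicative helicase and its loader led the decreases, with Mcm4 at 3.72 and 3.83 in mid-late spermatocytes, against 10.63, 10.52 and 10.76 in pre-mid spermatocytes. Mcm3 had 3.33 and 3.35 on mid-late arrays, against 9.53, 9.51 and 8.99 on pre-mid arrays. Mcm5 fell by 5.02 and Cdt1, which loads the helicase, by 5.10. The helicase was not uniform, since Mcm7 rose by 0.88, and the other 4 increases were those of Rrm1, Cdc6, Uhrf1 and Rfc3.

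Of 22 tested genes of the meiotic G2 to M transition, 10 rose and 4 fell, against 42.0% higher and 37.5% lower over all tested genes, so that the share of increases was near the background. Their median difference was 1.01, and 0.61 after quantile normalization. Ccna1, the cyclin needed for the first meiotic division in male mice, had 13.50 and 13.53 in mid-late spermatocytes, against 7.85, 7.80 and 8.22 in pre-mid spermatocytes, a 47.1-fold difference (5.56, SE 0.13, limma adjusted p = 1.0e-14). Aurkb, the kinase of the chromosomal passenger complex, had 10.48 and 10.41 on mid-late arrays, against 5.11, 5.32 and 4.72 on pre-mid arrays. Plk1, the polo kinase that drives entry into division, had 13.52 and 13.38 on mid-late arrays, against 8.73, 8.67 and 8.22 on pre-mid arrays. All 3 were measured in both stages and their groups did not overlap. The X-linked cyclin gene Ccnb3 went the other way, with 2.08 and 2.09 on mid-late arrays, against 9.73, 9.49 and 10.24 on pre-mid arrays.

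The piRNA pathway silences transposons and makes the abundant pachytene small RNAs. Of its 17 tested genes, 10 were higher and 4 lower (median difference 0.75), against 42.0% and 37.5% of all tested genes. After quantile normalization 9 were higher and 6 lower, with a median of 0.25. Henmt1, which methylates the ends of piRNAs, had 9.43 and 9.82 in mid-late spermatocytes, against 2.86, 3.15 and 2.92 in pre-mid spermatocytes (difference 6.65, SE 0.19). Tdrd1, a tudor scaffold, rose by 4.30, and Ddx25, a testis RNA helicase, by 2.91. Piwil1 had 14.47 and 14.41 on mid-late arrays, against 12.50, 12.66 and 11.62 on pre-mid arrays (difference 2.18, SE 0.39, limma adjusted p = 9.2e-05). Mov10l1, the helicase that starts processing of piRNA precursors, fell by 4.06, with a mean of 9.89 on mid-late arrays, against 13.94 on pre-mid arrays. The single values show Piwil1 high in both stages and Henmt1 at or near the background range in pre-mid pachytene.

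Transcription regulators moved in both directions, with 9 of 20 tested genes higher and 6 lower (median difference 0.36, and 0.59 after centring). Of all tested genes, 42.0% were higher and 37.5% lower, so the share of increases was near the background. Mybl1 had 5.56 and 6.31 in mid-late spermatocytes, against 4.04, 4.51 and 4.32 in pre-mid spermatocytes (difference 1.65, SE 0.35, limma adjusted p = 0.00045). Its level was low on all 5 arrays, and the 2 groups were separate. Pou5f2, a POU factor of pachytene spermatocytes, had 11.77 and 11.71 on mid-late arrays, against 5.78, 5.57 and 5.97 on pre-mid arrays. Among general transcription factor subunits, the X-linked Taf7l fell by 6.56 and Taf4b by 6.15. Of the pachytene markers, Nlrp14 rose by 5.10 and Clgn, a testis chaperone of the endoplasmic reticulum, by 3.20. Hspa2, the testis heat shock protein, had 14.62 and 14.88 on mid-late arrays, against 13.76, 13.72 and 13.34 on pre-mid arrays, and its difference of 1.14 passed in limma (adjusted p = 0.019). That call was lost after quantile normalization (adjusted p = 0.17), without mid-late replicate 2 (0.10) and without pre-mid replicate 3 (0.058).

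**Figure D3:**
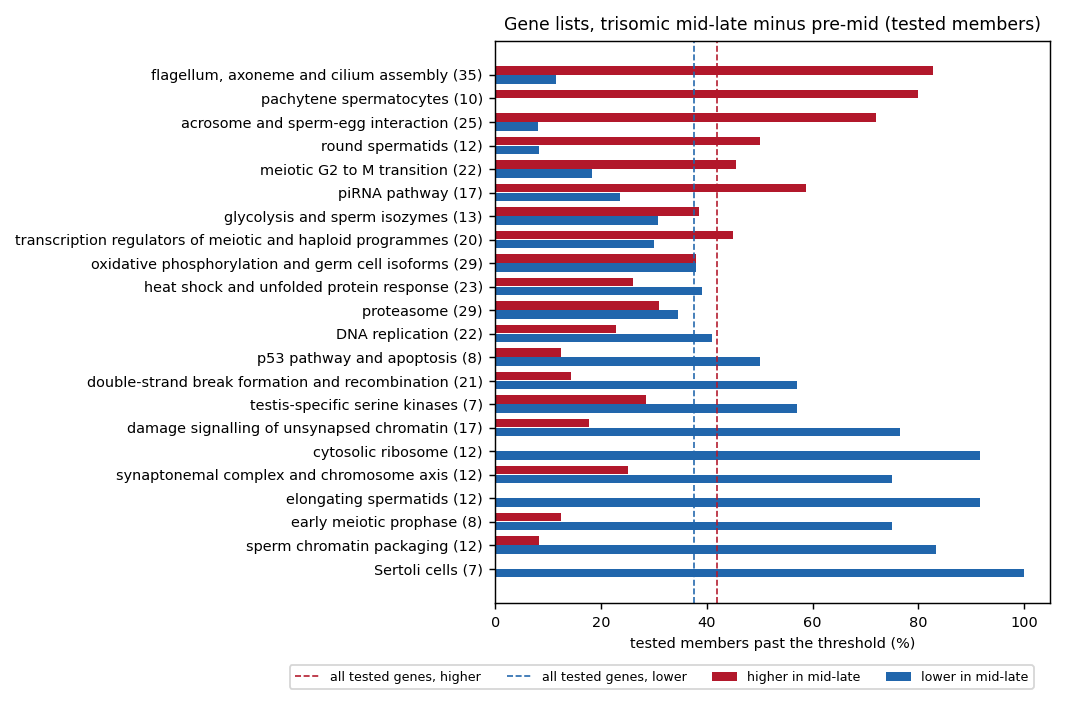
Bars give the percentage of tested members of each gene list that were higher or lower in mid-late than in pre-mid pachytene of trisomic germ cells, with the number of tested members in brackets. Dashed lines mark the same percentages over all tested genes, 42.0% higher and 37.5% lower; the flagellum and acrosome lists lie past the first line, and the elongating spermatid and ribosome lists past the second.

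Genes of the sperm tail and acrosome were mostly higher in mid-late pachytene. Of 35 tested genes of flagellum, axoneme and cilium assembly, 29 rose and 4 fell, against 42.0% and 37.5% of all tested genes. The median difference of the list was 3.05. Dnaic2, a dynein arm intermediate chain, had 11.74 and 11.77 in mid-late spermatocytes, against 5.59, 5.49 and 5.71 in pre-mid spermatocytes (difference 6.16, SE 0.21). The radial spoke proteins Rsph6a and Rsph9 rose by 5.78 and 5.27, and Ccdc40, which sets the spacing of axonemal complexes, by 5.34. The 4 decreases, Odf1, Akap3, Akap4 and Ropn1, code for outer dense fibre and fibrous sheath proteins. Of these, Odf1 is also in the elongating spermatid list.

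Of 25 tested acrosome and sperm-egg interaction genes, 18 rose and 2 fell, against 42.0% and 37.5% of all tested genes. The median difference of the list was 2.44. Adam1b, a fertilin subunit, had 12.21 and 12.30 in mid-late spermatocytes, against 6.40, 6.27 and 6.50 in pre-mid spermatocytes (difference 5.86, SE 0.10, limma adjusted p = 7.0e-16). Zpbp2 and Acrbp, proteins of the acrosome, rose by 5.06 and 4.71. Tex101, a surface protein of germ cells, went the other way, with 10.01 and 9.43 on mid-late arrays, against 15.42, 15.42 and 15.52 on pre-mid arrays. Of 12 round spermatid markers, 6 rose and 1 fell, where 42.0% and 37.5% of all tested genes did. Among the 6 were Actl7b (difference 2.85), a head protein, and Catsper3 (difference 2.82), a sperm calcium channel subunit. Acrv1, another acrosome gene, had 9.40 and 9.76 on mid-late arrays, against 8.92, 9.15 and 9.81 on pre-mid arrays. Its groups overlapped and its difference of 0.29 did not pass (adjusted p = 0.47). All 12 round spermatid markers stood above the background range in both stages, with a summed level of 118.5 to 122.3 on mid-late and 106.1 to 115.8 on pre-mid arrays.

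Genes of sperm chromatin packaging fell, with 10 of 12 tested genes lower and 1 (Chd5) higher, against 37.5% and 42.0% of all tested genes. The median difference of the list was -3.52. Of the 10, 6 belong to the elongating spermatid list described above. Prm1, a protamine, had 12.84 and 11.81 in mid-late spermatocytes, against 15.77, 15.90 and 16.05 in pre-mid spermatocytes (difference -3.58, SE 0.85, limma adjusted p = 0.0012), and 15.99 in spermatids. Tnp1, a transition protein, had 11.31 and 11.15 on mid-late arrays, against 15.12, 15.33 and 15.52 on pre-mid arrays. Tnp2 had 6.24 and 5.67 on mid-late arrays, against 13.75, 14.29 and 14.74 on pre-mid arrays. Each was lower on the mid-late arrays than on those of the labelled stages before and after. Elongating spermatid markers as a list were close to their spermatid level on the pre-mid arrays (13.59 to 14.39, against 14.26 to 14.77). Whether spermatocytes made these transcripts was not tested, since sorted bulk samples do not tell cells of a type and RNA per cell apart. The kinase gene Tssk6, which acts on sperm chromatin, fell by 6.18. Its list of testis kinases held 2 increases and 4 decreases, Tssk6 included, among 7 tested genes. Over all tested genes the shares were 42.0% and 37.5%.

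Sertoli markers fell as well. Ctsl, a protease, had a mean of 8.90 in mid-late arrays, against 13.94 in pre-mid arrays, and a difference of -5.03 (SE 0.41). Clu, a secreted chaperone, had 8.50 and 8.61 on mid-late arrays, against 12.99, 13.01 and 13.39 on pre-mid arrays. Amhr2, the receptor of anti-Müllerian hormone, fell by 4.19 and Aard by 4.13. Among markers of other somatic cells, Col3a1, a fibrillar collagen, had 7.26 and 7.24 on mid-late arrays, against 2.33, 2.89 and 2.65 on pre-mid arrays, while the summed level of its list of 8 was 28.4 to 28.7 on mid-late and 24.5 to 27.3 on pre-mid arrays, with 5 of the 8 in the background range in each stage. Adgre1, a macrophage receptor, rose by 1.50, with 7 of its list of 10 in the background range in each stage. Egfl7, of endothelium, fell by 0.95 and Alas2, of red cells, was lower as well (difference -1.46), with calls that were lost under another scaling of the arrays. Of 3 tested spermatogonial markers, Uchl1 fell by 3.35 and Ddx39a by 1.48. Id4 did not pass.

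Genes of protein synthesis and energy metabolism gave a mixed picture. Of all tested genes, 42.0% rose and 37.5% fell. Of 12 tested genes of the cytosolic ribosome, out of a list of 54, 11 fell and none rose, with a median difference of -1.83. Rpl15 had 4.48 and 3.66 in mid-late spermatocytes, against 10.73, 9.88 and 10.01 in pre-mid spermatocytes, and Rpl22 fell by 4.48, Rpl14 by 3.60 and Rps6 by 2.47. The other members of that list were not analysed here, and ribosomal protein genes have many near-identical pseudogenes that can share probes. In glycolysis, 5 of 13 tested genes rose and 4 fell, against 4 and 5 after quantile normalization and 7 and 4 after centring. Pfkp, the platelet-type phosphofructokinase, had 11.02 and 11.05 on mid-late arrays, against 5.07, 5.27 and 5.44 on pre-mid arrays. Eno4, an enolase of the sperm tail, rose by 4.05 and Pfkm, the muscle-type phosphofructokinase, by 3.67, while Gapdhs, which is on the elongating spermatid list too, fell by 3.41.

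The lists that follow are set beside the 42.0% higher and 37.5% lower of all tested genes. Of 29 oxidative phosphorylation genes, 11 were higher and 11 lower, against 4 and 15 after quantile normalization and 14 and 8 after centring. The X-linked Ndufa1 fell by 4.61, Ndufa4 by 4.33 and Cox6b1 by 2.67, while Cox8c, a germ cell form of a cytochrome oxidase subunit, rose by 1.84. Of 29 proteasome genes, 9 rose and 10 fell, with Psmc3 (5.26-fold) and Psmc5 (4.26-fold), ATPase subunits of the regulatory particle, higher and the core subunits Psma2 (difference -2.76) and Psma1 (difference -2.36) lower. Of 23 heat shock and unfolded protein genes, 6 rose and 9 fell. Hspa8, the constitutive HSP70, fell by 2.79, Hspa1b by 3.56 and Hspa1l by 3.01, while Sdf2l1, of the endoplasmic reticulum, rose by 3.28. The median differences of these 3 lists, 0.10, -0.01 and 0.04, were -0.39, -0.43 and -0.49 after quantile normalization and 0.33, 0.22 and 0.27 after centring each array on its autosomal median, so no direction is given for them. Of 8 tested p53 pathway and apoptosis genes, 1 rose and 4 fell, namely Perp (difference -2.80), Ccng1 (-2.35), Pmaip1 (-1.64) and Mcl1 (-0.85). Perp had 3.55 and 3.56 on mid-late arrays, against 7.20, 7.45 and 4.41 on pre-mid arrays, which differed widely among themselves.

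Genes of the trisomic segment moved in both directions. Of 165 tested genes in it, 79 rose (47.9%) and 56 fell (33.9%), with a median difference of 0.41, against 42.9% and 36.4% and a median of 0.17 on the autosomes other than 16 and 17. Distal chromosome 17, which is not in the segment, had 86 of 175 genes higher and 44 lower, with a median of 0.62. Chromosome 16 had 115 of 291 genes higher and 110 lower, with a median of -0.01. The segment median was 0.34 and 0.36 on the mid-late arrays relative to the pre-mid mean, and -0.03, -0.06 and 0.11 on the pre-mid arrays. These medians moved with the settings. Without a level filter they were 0.047 in the segment and 0.037 on the other autosomes, at a minimum mean of 6 they were 0.77 and 0.24, and after centring 0.64 and 0.40. After quantile normalization the other autosomes gave 0.076. In euploid cells the same genes gave 0.42 for the segment and 0.53 for distal chromosome 17.

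The largest increases within the segment were those of Smoc2, Wdr27, Prss21 and Cacna1h. Smoc2, a secreted calcium-binding matrix protein (chromosome 17, 14279490 to 14404790), had 9.82 and 9.75 in mid-late spermatocytes, against 3.27, 3.26 and 2.38 in pre-mid spermatocytes (difference 6.82, SE 0.52, limma adjusted p = 6.7e-09). Wdr27 (14784829 to 14943259) rose by 5.90, the serine protease gene Prss21 (23867883 to 23873121) by 5.43 and the calcium channel gene Cacna1h (25374285 to 25436334) by 5.42. Prss21 had 13.35 and 13.27 on mid-late arrays, against 7.60, 7.66 and 8.39 on pre-mid arrays. The largest decrease was that of Pigq (25926420 to 25942881), an enzyme of GPI anchor synthesis, with 3.62 and 3.41 in mid-late spermatocytes, against 9.68, 9.72 and 9.95 in pre-mid spermatocytes (difference -6.27, SE 0.18, adjusted p = 5.8e-14). Igf2r, the receptor that clears IGF2 (12682406 to 12769706), fell by 5.77, Zfp229, a zinc finger gene (21730955 to 21748969), by 5.43 and Jpt2 (24942470 to 24960623) by 5.33. The differences of these 8 genes in euploid cells ran the same way and none differed between the genotypes past the threshold.

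The same stage step was then compared between trisomic and euploid germ cells. The genotypes share no arrays but were fitted together, with 1 estimate of the spread per gene, so their calls are not independent. Over the 9010 tested genes the trisomic and euploid differences correlated across genes with r = 0.974 and rho = 0.971. Of 7042 called genes that were also tested in euploid cells, 6457 were called in the same direction there, 5 in the opposite direction, and 580 did not pass. Most genes were called in euploid cells in any case, 7165 of the 9058 tested there. The difference between the genotypes' differences was tested directly, as an interaction term in limma, for the 9199 genes that reached a mean of 4 in any pachytene group. It passed for 96 genes (1.04%), with 50 in which the trisomic difference was the more positive (0.544%) and 46 in which it was the more negative (0.500%), and 1334 genes had an unadjusted p under 0.05. The counts depended on single arrays. They were 24 positive and 18 negative without trisomic pre-mid replicate 1, 29 and 28 without its replicate 2, and 151 and 114 without its replicate 3. They were 321 and 155 without euploid mid-late replicate 1 and 88 and 190 without euploid pre-mid replicate 2, and 70 negative genes passed without euploid mid-late replicate 2. Only 46 of the 96 had a mean of at least 4 in all 4 groups. In a fit of the 16 germ cell arrays 36 of the 96 were called again, and 28 in a fit of the compared groups' arrays alone. Of the 96, 3 lay on X (of 260 tested), 5 on chromosome 16 (of 298) and 1 in the segment (of 167). The gene in the segment was Cuta, with a stage difference of -3.27 in trisomic and -4.77 in euploid cells, a call that was lost in 13 of the 20 settings tried (limma adjusted p of 0.0021 to 0.20).

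**Figure D4:**
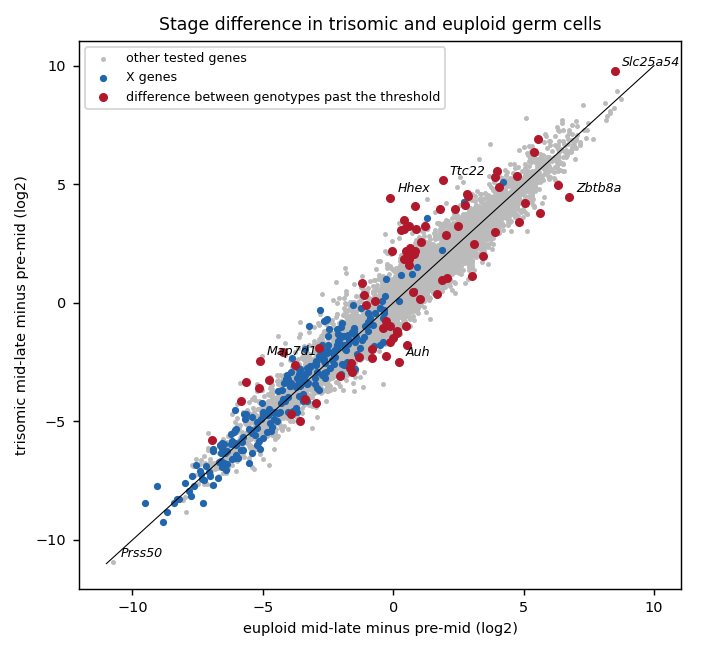
The difference between mid-late and pre-mid pachytene of each tested gene (log2) is plotted for trisomic cells (y axis) against euploid cells (x axis), with X genes and the genes that differed between genotypes coloured; the line marks equal differences. Points follow the line across genes (r = 0.974), and the genes with a genotype difference past the threshold number 96 over the 9199 tested for it.

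Of the 16 genes with the widest interactions, 8 of each sign, 12 reached a mean of 4 in only 1 of the 4 groups, and 11 lost the call in at least 1 of the settings tried. Hhex, Ttc22, Alppl2, Map7d1 and Pcyox1l kept it in every setting run. Hhex, a homeobox transcription factor (chromosome 19, 37434841 to 37440731), had 7.23 and 7.08 in trisomic mid-late spermatocytes, against 2.60, 2.78 and 2.80 in trisomic pre-mid spermatocytes. Its stage difference was 4.43 in trisomic and -0.11 in euploid cells, and the difference between them 4.54 (SE 0.44, limma adjusted p = 4.8e-05). Ttc22, a tetratricopeptide repeat gene, had 8.02 and 7.70 in trisomic mid-late spermatocytes, against 2.70, 2.70 and 2.68 in trisomic pre-mid spermatocytes, and a stage difference of 5.17 in trisomic and 1.89 in euploid cells. Pcyox1l, a prenylcysteine oxidase relative, had 5.97 and 5.63 in trisomic mid-late, against 2.76, 2.68 and 2.66 in trisomic pre-mid spermatocytes. The trisomic mid-late arrays of all 3 genes lay above the background range and their pre-mid arrays within it. Map7d1, a microtubule-associated protein, fell in both genotypes, with a stage difference of -2.44 in trisomic and -5.13 in euploid cells.

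Among the genes with a negative interaction, Auh, an enzyme of leucine breakdown, had 2.96 and 2.57 in trisomic mid-late spermatocytes, against 5.29, 5.45 and 5.03 in trisomic pre-mid spermatocytes. Its stage difference was -2.49 in trisomic and 0.22 in euploid cells, and the interaction did not pass without trisomic mid-late replicate 2 (limma adjusted p = 0.076) or trisomic pre-mid replicate 1 (limma adjusted p = 0.051). Zbtb8a, a zinc finger gene, had 6.45 and 6.83 in trisomic mid-late, against 2.20, 2.19 and 2.19 in trisomic pre-mid spermatocytes, and its stage difference was 4.45 in trisomic and 6.73 in euploid cells. Its interaction was lost in 9 of the 20 settings tried, with limma adjusted p values of up to 0.11. Of the genes already described, Slc25a54 had an interaction of 1.27 (adjusted p = 0.0087), Uchl1 of 2.30 (adjusted p = 0.022) and Mov10l1 of -0.69 (adjusted p = 0.049). Slc25a54 kept the call in all 20 settings tried, while Uchl1 lost it in 6 (limma adjusted p of up to 0.11) and Mov10l1 in 14 (limma adjusted p of up to 0.21). Their stage differences in trisomic and euploid cells were 9.76 and 8.49, -3.35 and -5.65, and -4.06 and -3.37.

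**Figure D5:**
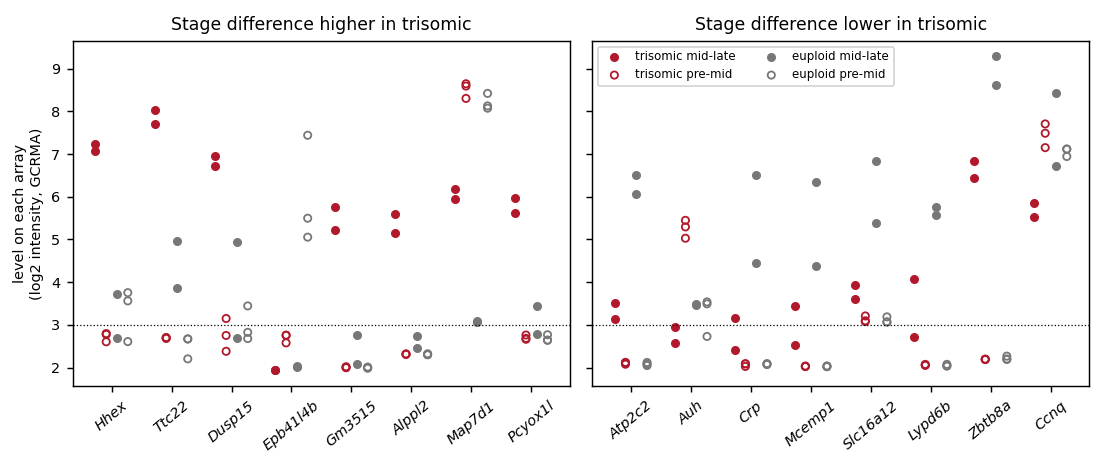
Levels on each array (log2 intensity, y axis) are shown for the 8 genes with the widest positive and the 8 with the widest negative difference between trisomic and euploid stage differences, with filled points for mid-late and open points for pre-mid arrays of both genotypes. The dotted line marks 3, the top of the background range; the trisomic mid-late points of Hhex lie at 7.23 and 7.08.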

How the data were processed

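RNA of liver and of sorted spermatogenic cells was labelled from 20 to 30 ng with a biotin protocol for small samples, per the labels' protocols, and hybridised to 22 Affymetrix arrays. The values in the deposited table are log2 intensities, one for each probe set, made by the authors with GCRMA per the submitters' processing notes; its version and the arrays normalized together are not given in the sources used here. Of 16539 probe sets, 15780 carried 1 gene symbol and 15768 were placed on GRCm38.p6; 759 without a name were left out. Array medians were 4.18 on both trisomic mid-late arrays and 4.52, 4.54 and 4.65 on the trisomic pre-mid arrays. This offset goes with the compared stages and cannot be told apart from them, and the number of arrays limits the precision.

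Group means of 8 groups were fitted over all 22 arrays with limma 3.58.1 in R 4.3.3, with two-sided tests and Benjamini-Hochberg adjustment at 0.05 over the genes whose mean reached 4 (python 3.11.15 for other steps). Named genes were the 12 largest changes each way without overlap of arrays, 5 and 3 on X, 4 each way in the segment, up to 4 called members a list, defining stage genes, the retrogene pairs and 8 interaction genes of each sign; others are exceptions of a list or were picked with their values in view, as stated beside them. The members and lists were chosen with earlier results of these data known, and lists carry no test. On simulated data for the stage comparison (9010 genes), 49 of 100 genes changed by 1 and 90 of 100 changed by 2 on the log2 scale were recovered, with 7 false calls. The simulation changed far fewer genes than the 7162 called in the data. Since the Benjamini-Hochberg cut depends on that share, these figures do not give the recovery in the stage comparison.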

Additional observations from a re-analysis of the deposited data

Results flagged for a closer look

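The stage difference of 96 genes differed between trisomic and euploid germ cells by the interaction test. The 16 given here are the 8 widest of each sign. Values are the trisomic stage difference minus the euploid one, on the log2 scale, with adjusted p values.

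Hhex had an interaction of 4.538 (adjusted p = 4.8e-05), with means of 7.15 in trisomic mid-late and 2.73 in trisomic pre-mid spermatocytes, against 3.20 and 3.31 in the same stages of euploid cells. Ttc22 had 3.277 (limma adjusted p = 0.00034), with 7.86 and 2.69 in trisomic, against 4.41 and 2.51 in euploid cells. Dusp15, a dual specificity phosphatase, had 3.246 (limma adjusted p = 0.029), Gm3515 had 3.065 (limma adjusted p = 0.041), Alppl2, an alkaline phosphatase, had 2.762 (limma adjusted p = 0.00042) and Pcyox1l had 2.667 (limma adjusted p = 3.8e-05). Of these 6 genes, Hhex, Dusp15, Gm3515, Alppl2 and Pcyox1l reached a mean of 4 only in trisomic mid-late spermatocytes and so entered the test through that group. Epb41l4b had 3.217 (limma adjusted p = 0.022) with a stage difference of -0.76 in trisomic, against -3.98 in euploid cells, and both mid-late means in the background range. Map7d1 had 2.686 (limma adjusted p = 0.0063), with 6.07 in trisomic, against 3.08 in euploid mid-late spermatocytes.

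Atp2c2, a calcium and manganese pump, had -2.985 (limma adjusted p = 0.013), with 3.33 in trisomic, against 6.30 in euploid mid-late spermatocytes. Crp had -2.68 (limma adjusted p = 0.026), Mcemp1 had -2.377 (limma adjusted p = 0.038), Slc16a12 had -2.352 (limma adjusted p = 0.035), Lypd6b had -2.285 (limma adjusted p = 0.011) and Zbtb8a had -2.284 (limma adjusted p = 0.033). Atp2c2, Crp, Mcemp1, Slc16a12 and Lypd6b reached a mean of 4 only in euploid mid-late spermatocytes and so entered the test through that group. In these 5 and Zbtb8a both pre-mid means were near the background range, at 2.03 to 3.13. Auh had -2.709 (limma adjusted p = 0.022), with a pre-mid mean of 5.26 in trisomic, against 3.25 in euploid cells. Ccnq had -2.269 (limma adjusted p = 0.038), with 5.69 in trisomic, against 7.57 in euploid mid-late spermatocytes.

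The calls of Hhex, Ttc22, Alppl2, Map7d1 and Pcyox1l held in every setting run, and the other 11 were lost in at least 1. In a fit of the 16 germ cell arrays, 10 of the 11 did not pass, with limma adjusted p values of 0.055 (Lypd6b), 0.062 (Atp2c2), 0.078 (Slc16a12), 0.079 (Epb41l4b), 0.089 (Crp), 0.095 (Ccnq), 0.098 (Dusp15), 0.11 (Zbtb8a), 0.12 (Mcemp1) and 0.13 (Gm3515). With the arrays of the compared groups alone, limma adjusted p values were 0.15 for Lypd6b, 0.16 for Slc16a12, 0.21 for Dusp15, 0.22 for Epb41l4b and Ccnq, 0.23 for Crp and 0.28 for Mcemp1. Without trisomic mid-late replicate 1, limma adjusted p values were over 0.05 for Dusp15 (0.084), Epb41l4b (0.059), Gm3515 (0.069), Crp (0.098), Slc16a12 (0.068), Zbtb8a (0.11) and Ccnq (0.12). Without trisomic mid-late replicate 2 they were over it for Dusp15 (0.064), Epb41l4b (0.058), Gm3515 (0.15), Auh (0.076), Mcemp1 (0.16), Slc16a12 (0.13), Zbtb8a (0.055) and Ccnq (0.076). Without trisomic pre-mid replicate 1, Dusp15 (0.074), Epb41l4b (0.054), Gm3515 (0.080), Auh (0.051), Crp (0.056), Mcemp1 (0.080), Slc16a12 (0.080), Zbtb8a (0.074) and Ccnq (0.056) did not pass in limma. Without trisomic pre-mid replicate 2, Gm3515, Crp, Mcemp1, Slc16a12, Zbtb8a and Ccnq did not pass. Without euploid mid-late replicate 2, Gm3515, Slc16a12 and Zbtb8a did not pass, and without euploid pre-mid replicate 1 or 3 these 3 and Ccnq did not, nor did Mcemp1.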

How the results depend on the processing

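The stage counts of 3783 higher and 3379 lower genes lay between 3525 and 3686 and between 3109 and 3287 when 1 array was left out; lower genes numbered 2203 at a minimum mean of 8, and 188 higher and 857 lower genes were left among those with a spermatid mean below 4, an alternative chosen after seeing the data. Interaction counts (50 positive, 46 negative) were less firm: 22 and 21 at a minimum mean of 6, 4 and 5 at 8, 33 and 26 with a trended and robust spread, 32 and 23 with the 16 germ cell arrays, and 21 and 25 where all 4 means reached 4 (also added later). With the arrays of the compared groups alone they were 38 and 34. The genes changed more than the counts. Of the 96 genes, 36 were called again with the 16 germ cell arrays and 28 with the arrays of the compared groups. Without single arrays the counts ran from 24 to 321 and from 18 to 190 (lowest without trisomic pre-mid replicate 1, highest without euploid mid-late replicate 1 and euploid pre-mid replicate 2). With the replicate number as a block they were 25 and 26. Deviations of same-numbered arrays from their group means correlated with r of 0.036 and -0.045 in trisomic and -0.19 and -0.017 in euploid cells. With 2 mid-late arrays the deviations of 1 mirror those of the other, so these r values cannot decide on a pairing. The numbers were not taken as a pairing in the main fit. Under the block Pgk2 passed (0.70, limma adjusted p = 0.022). The X median was -4.33 at a minimum mean of 6 and -0.17 without a filter (-3.44 to -3.04 without single arrays). The segment median was 0.77 and 0.047 under the same settings, 0.64 after centring each array on its autosomal median, 0.56 and 0.61 with ends at 25 and 35 Mb, and 0.34 to 0.49 without single arrays. The distal 17 median was 0.050 without a filter, 0.56 as a mean, 0.45 after quantile normalization and 0.85 after centring (0.54 to 0.66 without single arrays). Chromosome 16 gave 0.12 at a minimum mean of 6, 0.13 as a mean and 0.22 after centring (-0.05 to 0.03). The other autosomes gave 0.24 at 6, 0.037 without a filter, 0.16 as a mean, 0.076 after quantile normalization and 0.40 after centring (0.16 to 0.18). Centring gave a median over all tested genes of 0.34, against 0.11 as deposited. Of 79 single-gene results checked, 20 changed their call or direction in some setting, and Cstf2t turned to -0.34 after quantile normalization. The cause of these changes was not tested. Probe sets in the background range give no order, which limits differences that involve them.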
